A study of Mus musculus with 2 samples.

Results

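MicroRNA genes were examined on 2 Affymetrix whole-transcript arrays of mouse liver, 1 from Iah1-WT mice and 1 from Iah1-KO mice. The genes were chosen by name and brightness. A probe set counted when the platform annotation gave it exactly 1 symbol, that symbol began with Mir and a digit or with Mirlet7, and the higher of the 2 arrays reached 4.68 on the log2 scale, the median of the higher values of all 22180 named genes. The rule found 84 genes, each through 1 probe set, of 483 microRNA genes with a probe set of their own. This was 17.4% of the microRNA genes, against 49.9% of all named genes above the same threshold. Of the 84, RefSeq lists 83 as microRNA genes and 1, Mir99ahg, as the long host transcript of a microRNA cluster. Brightness chose these genes, so their levels are a description and support nothing, and a gene that passed through 1 array alone had to differ between the arrays.

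Both groups were male, lived 1 to a cage, ate chow until 6 weeks of age and a high-fat diet for 12 weeks after that, and had no food for 4 hours before the liver was taken. Iah1-WT mice carry the gene, and Iah1-KO mice lack it throughout the body. The protein is the mouse counterpart of a yeast enzyme that cleaves isoamyl acetate. Each array carried RNA combined from 3 mice, so a value stands for 1 pooled RNA, and no genotype was replicated or tested. Iah1 itself was at 8.59 in WT and 3.90 in KO. Hepatocyte markers were bright, with all 10 above the threshold.

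A microRNA is cut from a hairpin within a longer RNA, the primary transcript, which is often the intron of a protein-coding gene. Drosha and Dgcr8 release the hairpin in the nucleus, Xpo5 exports it, Dicer1 cuts out the short duplex, and an Argonaute protein carries 1 strand of it to messenger RNAs that pair with its seed, bases 2 to 8. In liver, miR-122 makes up most of the mature microRNA and supports lipid metabolism, and miR-192 and miR-194 are made together. These arrays do not report that mature pool. The labelling kit was one for whole transcripts, and the RNA had passed over a silica column of a kind that retains little short RNA. A probe set for a hairpin is therefore taken here as a reading of the primary transcript or the host RNA around it, not of the mature strand. Brightness also differs from probe to probe for reasons other than abundance, so the order of values between genes is no order of abundance.

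The sequences below, from the RefSeq table of build GRCm38.p6, are those on which the comparison turns. They are the mature strands of the genes that differed by 1.5-fold or more between the arrays and have one in that table, with the seed in capitals. Where the table holds both arms, the arm usually taken as the active one is shown if known, and otherwise the 5p arm. Where it holds 1 arm, that arm is shown.
mmu-miR-107-3p: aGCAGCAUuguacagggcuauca
mmu-let-7a-5p: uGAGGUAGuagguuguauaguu
mmu-miR-194-5p: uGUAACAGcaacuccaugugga
mmu-miR-339-5p: uCCCUGUCcuccaggagcucacg
mmu-miR-139-5p: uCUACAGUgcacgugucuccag
mmu-miR-375-5p: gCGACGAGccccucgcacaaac
mmu-miR-540-5p: cAAGGGUCacccucugacucugu
mmu-miR-680: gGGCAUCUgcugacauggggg
mmu-miR-3091-5p: cAUGGGUCugguugggcccgc
mmu-miR-3093-5p: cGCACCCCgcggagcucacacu
mmu-miR-5120: uUUGGGGCuguggugccaccagc
No seed is repeated among these 11. For Mir375 the arm shown is the 5p arm, whereas the 3p arm is the one usually taken as active. Mir467c is named only.

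The dominant liver microRNAs were not among the 84. Mir122 was at 3.32 in WT and 3.05 in KO. Mir192 was at 3.35 and 2.89. Mir148a, another abundant liver microRNA, was at 2.09 and 1.85. All 3 lay below the threshold on both arrays, where values are not shown to exceed background, so no direction is read from them. Mir33, which lies in an intron of the sterol regulator Srebf2 and represses the cholesterol exporter Abca1, was at 2.11 and 1.90. Of 24 measured microRNA genes in a list tied to liver and its metabolism, 20 were below the threshold, and the 4 above it were Mir107, Mir194-1, Mir375 and Mir483. Lists for other cell types also stayed low. None of 12 blood and myeloid microRNA genes and none of 10 stellate or mesenchymal ones passed. From 14 endothelial entries the host transcript Mir99ahg alone passed, at 5.19 in WT and 5.07 in KO. Among 19 muscle and neural genes the list held 1 above the threshold, Mir9-3, at 4.60 and 4.75. That list held the host transcript Mir124-2hg (3.88 and 3.78) but not Mir124a-2 within its span. Mir124a-2 passed on the KO array alone, at 4.54 in WT and 4.77 in KO. Neither the 6 genes of the miR-30 family, the 10 of the miR-17 to miR-92 clusters nor the 4 of the miR-200 family reached it. Mir21a, Mir126a and Mir223 share their probe sets with another gene in the annotation and are not named here. There were 136 probe sets with several symbols that included a microRNA, and 52 of them were above the threshold.

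The shared mature strand of the 2 Mir194 genes shows how the hairpins differ around it. The mature arms are in capitals.
Mir194-1: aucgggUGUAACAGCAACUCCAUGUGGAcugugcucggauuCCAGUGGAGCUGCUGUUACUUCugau
Mir194-2: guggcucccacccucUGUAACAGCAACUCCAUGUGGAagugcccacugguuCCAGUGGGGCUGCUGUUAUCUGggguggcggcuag
Mir192: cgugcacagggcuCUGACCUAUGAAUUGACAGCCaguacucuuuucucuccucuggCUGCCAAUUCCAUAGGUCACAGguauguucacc
Mir194-1 lies at chr1:185313319-185313385 on the plus strand, within the span of Iars2, a mitochondrial isoleucine tRNA synthetase gene on the opposite strand. Mir194-2 lies at chr19:6264643-6264728 and Mir192 beside it at chr19:6264844-6264932, both on the plus strand. Neither locus was shown to differ between the arrays. Mir194-1 was at 4.18 in WT and 4.77 in KO. Next to it, Mir215, which makes a relative of miR-192, was at 2.70 and 3.26. Mir194-2 was at 4.21 and 3.83. Of these 4 genes Mir194-1 alone passed the threshold, on the KO array only, and against the threshold its difference was at least 1.07-fold. After a loess fit and after renewed quantile normalization Mir194-1 no longer reached 1.5-fold.

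Counted by size, 11 of the 84 genes were at least 1.5-fold higher in KO and 1 was at least 1.5-fold lower. These are 13.1% and 1.19% of the 84. Among all 11075 named genes above the threshold the shares were 1.46% higher and 2.46% lower, and among the 4594 named genes whose mean level lay between the microRNA genes' quartiles, 5.04 and 6.72, they were 1.22% and 2.70%. The 84 reach beyond that range on both sides. Of the genes higher in KO, Mir3093, Mir194-1, Mir680-3, Mir5120, Mir540 and Mir139 had a mean level under it, and Mir467c above it. The shares within the range are thus not matched in level to all 84. The median difference of the 84 was 0.16 on the log2 scale, with 61 above 0 and 23 below, while the median over all named genes above the threshold was -0.02, with 44.3% above 0. Where a gene has several probe sets, these disagreed with a standard deviation of 0.27 for a single difference (604 genes above the threshold), the one error that can be had here. It covers neither mice nor hybridisation, and 13 of the 84 differences exceeded 2 such standard deviations, 11 upward and 2 downward. This is 15.5% of the 84, against 4.93% of all named genes above the threshold. Of the 84, 14 passed through 1 array alone, 12 through KO and 2 through WT, and these had to differ. Of the 70 genes above the threshold on both arrays, 6 were higher and 1 was lower at 1.5-fold, the median was 0.14, and 49 lay above 0. The matching shares of all named genes, for passing through 1 array and for passing on both, are not given here. What in these counts is particular to microRNA genes therefore cannot be read from them. The 399 microRNA genes below the threshold had a median of -0.01, with 49.1% above 0.

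**Figure D1:**
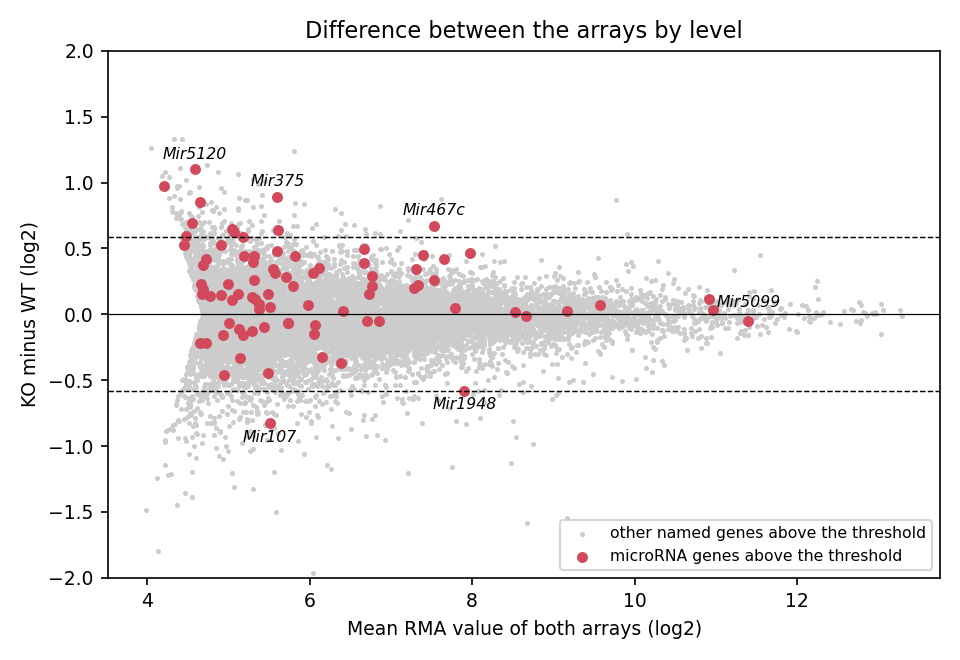
The difference between the arrays (KO minus WT, log2) against the mean RMA value of both arrays, with 1 point per gene, for the 84 microRNA genes (red) and the other named genes above the threshold (grey); dashed lines mark 1.5-fold. More red points lie above 0 (61) than below (23), and Iah1, at -4.69, lies outside the plotted range.

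Mir107 was the 1 gene lower by the set size. The WT array gave 5.92 and the KO array 5.10, which is -0.83 on the log2 scale or 1.78-fold, and both arrays were above the threshold. Mir107 belongs with Mir103 to a pair of paralogues that reduce insulin sensitivity in liver and fat, and it sits in Pank1, a pantothenate kinase gene that starts coenzyme A synthesis, on the same strand. Pank1 itself was bright and nearly level, with 10.2 on the WT and 10.1 on the KO array (-0.09). The hairpin of Mir107 (chr19:34820687-34820773, minus strand, GRCm38.p6) and those of both Mir103 genes share the seed GCAGCAU and most of their stem, as seen here with the mature arms in capitals.
Mir107: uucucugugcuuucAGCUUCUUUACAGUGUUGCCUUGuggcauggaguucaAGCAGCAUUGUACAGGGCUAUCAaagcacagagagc
Mir103-2: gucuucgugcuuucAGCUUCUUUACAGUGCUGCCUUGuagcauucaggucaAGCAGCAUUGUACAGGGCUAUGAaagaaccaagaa
Mir103-1: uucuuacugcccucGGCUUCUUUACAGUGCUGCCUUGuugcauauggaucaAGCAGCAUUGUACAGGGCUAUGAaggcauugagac
Mir103-2 (chr2:131288052-131288137, plus strand) was at 3.59 in WT and 2.59 in KO, and Mir103-1 (chr11:35782396-35782481, plus strand) was at 2.11 and 1.75. Both Mir103 genes were below the threshold on both arrays, so no direction is read from their values. Probes for such similar stems may not tell the genes apart. Pank3, which holds Mir103-1, was at 8.39 and 8.45.

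Among the genes that were higher in KO, 6 were above the threshold on both arrays. Mir375, best known from pancreatic islets, where it restrains insulin secretion, was at 5.16 in WT and 6.05 in KO, 1.85-fold higher. Mir467c, from a large repeat cluster in an intron of Sfmbt2, was at 7.19 and 7.87, 1.59-fold higher, and was the brightest of the 6. Mir139, an intronic microRNA that restrains growth signalling, was at 4.72 and 5.37, 1.57-fold higher. These 3 genes have no host gene or cluster in common, and Mir139 only just passed the threshold in WT. Mir3091, within the ribosomal protein gene Rps21, was at 5.29 and 5.92, 1.55-fold higher. Mir339 was at 4.76 and 5.39, 1.54-fold higher. Mirlet7a-1, a gene of the growth-restraining let-7 family, was at 4.88 and 5.47, 1.5-fold higher, at the edge of the set size.

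The other 5 passed on the KO array alone, and their folds are given against the threshold. Mir5120, in the B cell gene Pax5, was at 4.03 in WT and 5.13 in KO, at least 1.37-fold higher. Mir540, from the imprinted region of chromosome 12, was at 4.23 and 5.08, at least 1.32-fold higher. Mir680-3 was at 4.21 and 4.90, at least 1.16-fold higher. Mir3093 was at 3.72 and 4.69, at least 1.01-fold higher, and Mir194-1 is described above. With 1 pooled RNA per genotype, none of these 5 is shown to differ, and passing through the KO array alone fixed their direction. The bounds of Mir3093 and Mir194-1 lie closest to 1. Mir3093 was also the gene just inside the threshold, followed by Mir598 (4.19 and 4.71) and Mir9-3. Just outside were Mir1927 (4.68 after rounding, and 4.20), Mir329 (4.66 and 3.47) and Mir181a-2 (4.18 and 4.64).

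**Figure D2:**
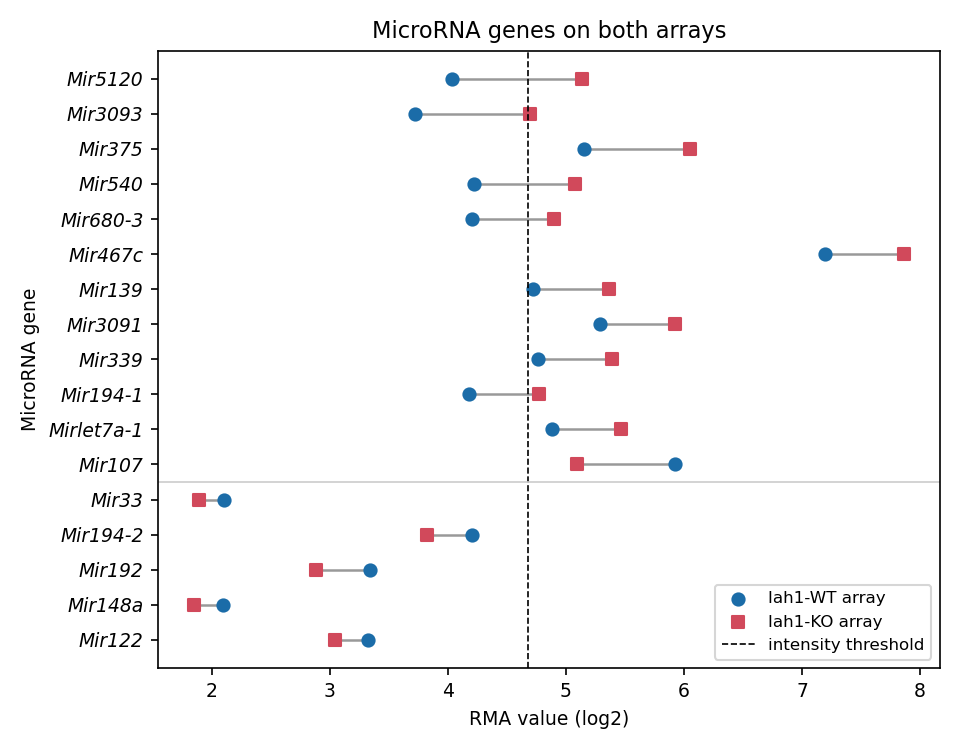
RMA values (log2) on the WT array (circles) and the KO array (squares) for the 12 microRNA genes that differed by 1.5-fold or more and passed the threshold, and, under the grey line, 5 liver microRNA genes that did not pass. Mir107 is the 1 gene in the upper group with the KO value to the left of WT, and Mir122 and Mir192 lie left of the dashed threshold of 4.68 on both arrays.

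The remaining 72 genes differed by less than 1.5-fold. Mir1948 came closest, with 8.19 on the WT and 7.61 on the KO array (-0.58). It lies in Ttc39c, which was at 9.69 and 9.60. Mir425 was at 5.18 and 4.72, Mir92b, a relative of the miR-17 to miR-92 group, at 5.71 and 5.26, and Mir5123 at 6.57 and 6.20. At the upper end, Mir3058, above the threshold on both arrays, differed by 0.50 (6.43 and 6.92). Mir344d-2 (4.65 and 5.18) and Mir598 passed through the KO array alone, and against the threshold they were at least 1.41-fold and 1.02-fold higher. Mir210, the microRNA induced by low oxygen, was at 6.65 and 6.81. Mir185, which represses sterol uptake genes, was at 6.47 and 6.86. Mir483, which lies in Igf2 and shares its fetal expression, was at 6.74 and 6.68, while Igf2 was below the threshold at 3.98 and 4.32.

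The brightest microRNA probe sets hardly differed between the arrays. Mir5099 was at 11.4 on both (-0.05), Mir692-1 at 10.9 and 11.0 (0.03), Mir449b at 10.9 and 11.0 (0.12), Mir703 at 9.54 and 9.61 (0.07) and Mir505 at 9.16 and 9.18 (0.02). Mir680-2 (-0.02) and Mir1195 (0.02) were as close. Mir449b is known from ciliated cells, and its neighbours Mir449a (3.36 and 2.95) and Mir449c (2.58 and 2.90) and the surrounding gene Cdc20b (3.80 and 3.79) were all below the threshold. Likewise Cfap299, around Mir703, was at 2.39 and 2.20. A bright hairpin probe set thus occurred within a gene below the threshold. In the next brightness range, Mir5112 (7.74 and 8.21), Mir1954 (7.44 and 7.86), Mir181d (7.17 and 7.62), Mir5135 (7.40 and 7.66) and Mir1946a (7.22 and 7.44) were higher in KO, by 0.22 to 0.46, as was Mir467c, by 0.67. Mir5125 was level at 7.77 and 7.81, and Mir1948 differed by -0.58.

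Genes with a common seed or a common primary transcript allow the measurements to be set against each other. Seeds were compared only among those of the 84 genes whose mature strand was at hand, which left out Mir467c and Mir467e, among others. Of 5 seeds held by more than 1 of the compared genes, 2 belong to neighbours on the genome. Mir181c and Mir181d, whose products tune lymphocyte signalling, lie together on chromosome 8. Mir15a and Mir16-1, which restrain the cell cycle, lie together in Dleu2 on chromosome 14.
mmu-miR-181c-5p: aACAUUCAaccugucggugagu
mmu-miR-181d-5p: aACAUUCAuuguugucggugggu
mmu-miR-15a-5p: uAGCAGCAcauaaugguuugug
mmu-miR-16-5p: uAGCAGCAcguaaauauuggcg
Mir181c (5.36 and 5.84) and Mir181d differed almost alike, by 0.48 and 0.45. Mir15a (5.76 and 5.70, -0.07) and Mir16-1 (5.11 and 5.50, 0.40) did not, although both come from Dleu2, which was at 5.52 and 5.58. Each of these differences carries the probe set standard deviation of 0.27. The other seeds joined unlinked genes. Mir149 (-0.12) and Mir1943 (0.31) hold AGGGAGG, Mir674 (-0.33) and Mir3473d (0.11) hold CACUGAG, and Mir680-2 (-0.02) and Mir680-3 (0.69) give the same mature strand.

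Most of the let-7 family was below the threshold, and Mirlet7a-1 was the 1 of 12 measured genes above the threshold. Its cluster partners on chromosome 13, Mirlet7f-1 (1.93 and 2.04) and Mirlet7d (2.33 and 2.36), lay far below it and differed little, while Mirlet7a-2, with the same mature strand from another chromosome, was at 2.97 and 2.45. Mir425 differed by -0.46, while its neighbour Mir191 within Dalrd3 was below the threshold on both arrays, at 4.06 and 4.28. Mir99b was above the threshold at 5.57 and 5.85, and its neighbour Mirlet7e below it at 2.99 and 3.22.

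Large microRNA clusters entered through a few genes. In the imprinted region of chromosome 12, whose microRNAs come from the maternal allele and are mainly fetal, 5 of 42 measured genes passed. Mir673 (6.66 and 6.88), Mir665 (5.22 and 5.35) and Mir666 (4.70 and 4.84) were above it on both arrays and differed by 0.13 to 0.22, less than the probe set standard deviation. Mir540 and Mir341 (4.59 and 4.78) passed through the KO array alone and so had to be higher there. The 37 below the threshold went both ways, 19 above 0, with a median of 0.04. The long RNAs of the region, Meg3 (3.05 and 3.54) and Rian (2.87 and 3.11), were below the threshold. The cluster in Sfmbt2 on chromosome 2, made of repeated copies, had 3 of 22 genes above it: Mir467c, Mir466h (5.10 and 5.54) and Mir467e (5.19 and 5.45). They differed by 0.26 to 0.67. The 19 below the threshold went both ways, 11 above 0, with a median of 0.08. Sfmbt2 itself was at 3.07 and 3.13, and copies in this cluster may share signal.

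Host genes were mostly bright and differed little between the arrays. RefSeq places 40 of the 84 genes within a longer gene on the same strand, 4 in one on the opposite strand and 25 in none, while 16 lie in a gene whose strand relation could not be read from the tables used; 1 gene, Mir574, counts on both strands. Same-strand hosts above the threshold gave 29 pairs with 28 hosts. No host among the 28 differed by 1.5-fold in either direction. Of all named genes above the threshold, 1.46% were higher and 2.46% lower by that size, so none of 28 is near the general share. Their median difference was -0.01 against 0.07 for the microRNA genes inside them, and 16 of the 29 pairs had the same sign. Across the pairs, the differences had a Pearson's r of -0.03 and a Spearman's rho of -0.03 (n = 29 pairs from the same arrays).

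Some pairs were far apart. Pde2a, a cyclic nucleotide phosphodiesterase gene, was at 7.64 in WT and 7.16 in KO (-0.49), while Mir139 within it differed by 0.65. Eng, the endothelial TGF-beta co-receptor gene, was at 9.08 and 8.65 (-0.43), while Mir1954 within it differed by 0.42. Endothelial markers were lower in the same array, with 10 of 12 below 0, 5 of them by 1.5-fold or more. Their log2 values summed to 87.6 in WT and 82.4 in KO. All 12 macrophage markers lay below 0, 3 of them by 1.5-fold or more, with sums of 90.0 and 84.2. Of 8 stellate markers above the threshold, 6 lay below 0 and none reached 1.5-fold. The 10 hepatocyte markers had a median of -0.02, and none of 7 lymphocyte markers passed the threshold. Over all named genes above the threshold, 2.46% were lower by 1.5-fold or more, and 44.3% lay above 0. In a tissue RNA, fewer cells of a type and less RNA per cell cannot be told apart, and the part of cell composition in these host values was not tested. B4galt1 (8.65 and 8.21, -0.44) and Mir5123 within it (-0.37) were lower together. Nudt4, which degrades inositol pyrophosphates, was at 10.3 and 10.1 against a difference of 0.50 for Mir3058.

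**Figure D3:**
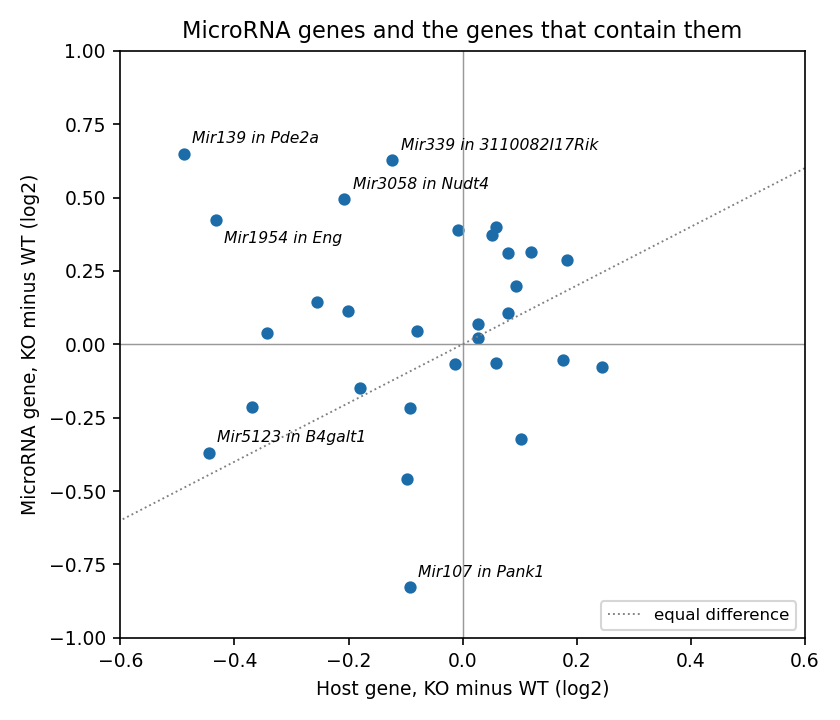
Difference between the arrays (KO minus WT, log2) of each microRNA gene against that of the same-strand gene that contains it, for the 29 pairs with both above the threshold; the dotted line marks equal differences. The points do not follow the line (r = -0.03), and Mir139 in Pde2a and Mir1954 in Eng lie farthest from it.

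MicroRNA genes above the threshold had hairpins richer in G and C than those below it. RefSeq hairpins were at hand for 400 of the 483 microRNA genes, 64 of them among the 84. The median share of G and C in the hairpin was 57.7% for the 64 and 47.1% for the 336 below the threshold, at a median length of 83 bases in both. Of hairpins with under 40% G and C, 3 of 61 passed (4.92%). With 60% or more, 27 of 46 passed (58.7%). Across all 400 genes, G and C content and mean level had a Pearson's r of 0.44 and a Spearman's rho of 0.52, which describes probes on the same 2 arrays. A hairpin near the median of those below the threshold and a GC-rich hairpin, both from the liver comparison, are set side by side here. The mature arms that the table lists are in capitals, for Mir375 the 5p arm alone, so its 3p arm is in lower case.
Mir148a: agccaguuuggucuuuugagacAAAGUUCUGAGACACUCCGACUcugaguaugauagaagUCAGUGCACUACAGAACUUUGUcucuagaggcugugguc
Mir375: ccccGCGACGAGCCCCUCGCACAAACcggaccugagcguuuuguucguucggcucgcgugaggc
Mir148a (chr6:51269812-51269910, minus strand), below the threshold, has 45.5% G and C, and Mir375 (chr1:74900658-74900721, minus strand), above it, has 67.2%.

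The difference between the arrays stood out in the most GC-rich group, while its correlation with composition was weak. Across all 400 genes, G and C content and the difference had a Pearson's r of 0.15 and a Spearman's rho of 0.12, and across the 336 genes below the threshold these were 0.042 and 0.0032. In the group with 60% or more, the median difference was 0.23, both for all 46 genes (35 above 0) and for the 27 that passed (21 above 0). The 133 genes with 50 to 60% had a median of 0.00, with 67 above 0, the 160 genes with 40 to 50% had -0.03, with 74 above 0, and the 61 genes under 40% had 0.02, with 33 above 0. Of the 11 genes higher by 1.5-fold or more, 6 had 60% or more, 4 had less, and Mir467c had no hairpin in the table. The 37 genes that passed with under 60% had a median of 0.13, and 25 of them lay above 0. The part of base composition in the difference between the arrays was not tested.

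**Figure D4:**
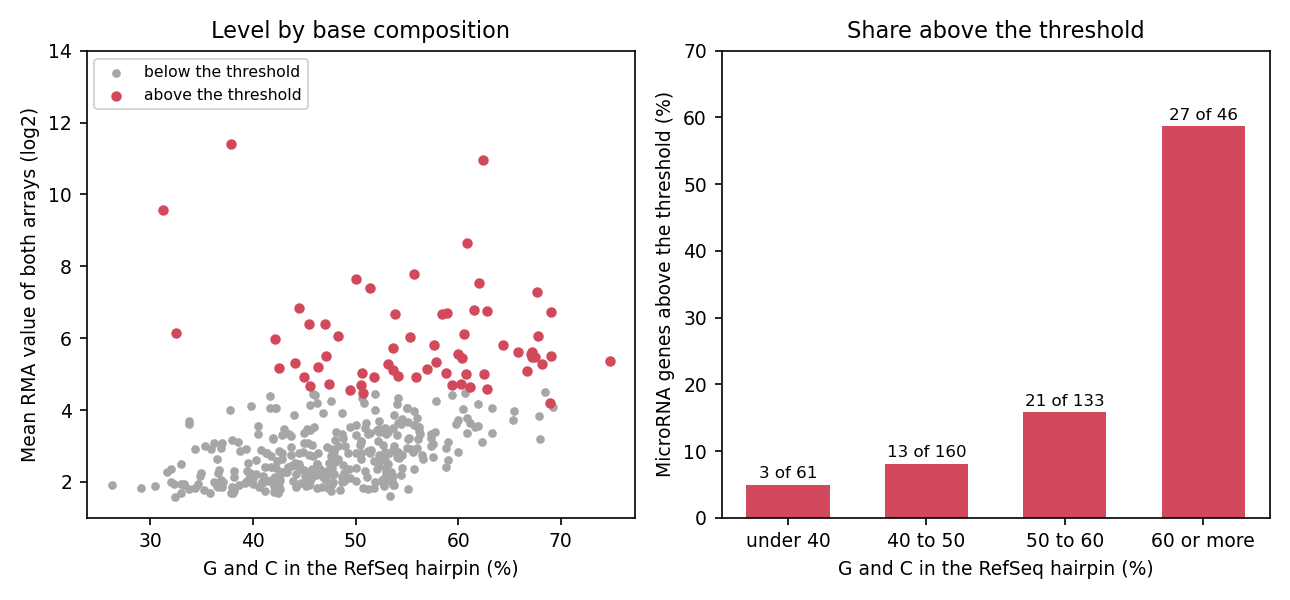
Left, mean RMA value of both arrays (log2) against the share of G and C in the RefSeq hairpin, 1 point for each of 400 microRNA genes, red where the gene passed the threshold. Right, the share of microRNA genes that passed in 4 ranges of G and C content, from 3 of 61 under 40% to 27 of 46 at 60% or more.

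MicroRNA genes in a bright host passed the threshold more often than others, by the counts, where the hairpin was not GC-rich. Of 104 microRNA genes in a same-strand gene above the threshold, 29 passed (27.9%), against 9 of 75 (12.0%) in a same-strand gene below it and 25 of 168 (14.9%) in no gene. With hairpins under 60% G and C the numbers were 21 of 89 (23.6%), 4 of 63 (6.35%) and 8 of 131 (6.11%). With 60% or more they were 5 of 9, 4 of 7 and 11 of 16. These are counts from the brightness that chose the genes and are given without a test.

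The protein genes that make and use microRNAs were nearly level between the arrays. Of 27 measured genes of this machinery, 24 passed the threshold and none differed by 1.5-fold, with 14 above 0 and 10 below and a median of 0.04. By that size, 1.46% of all named genes above the threshold were higher and 2.46% lower, so none of 24 is near the general share. Drosha, which cuts the primary transcript, was at 6.10 in WT and 6.34 in KO (0.25), and Xpo5 was at 6.37 and 6.46. Dicer1 was at 7.26 and 7.03 (-0.23), and Ago2, the Argonaute that can cleave its target, was at 7.74 and 7.77. Xrn1, a 5′ to 3′ exonuclease, was at 6.85 and 6.55 (-0.30), and Xrn2 at 7.64 and 7.38 (-0.26). Tarbp2, a Dicer1 partner, was at 4.37 and 4.77, below the threshold in WT and at least 1.06-fold higher against it. Lin28a and Lin28b, which block let-7 maturation, were below the threshold.

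Genes reported as targets of 2 liver microRNAs gave no common direction. Of 11 measured miR-122 targets, 10 passed the threshold, 6 lay above 0 and 4 below, with a median of 0.09. The 1 past 1.5-fold was Cd320, the receptor for transcobalamin, at 4.50 and 5.27, below the threshold in WT and at least 1.5-fold higher against it. By that size, 1.46% of all named genes above the threshold were higher and 2.46% lower. In a list of 10 genes, 1 is too few to set against those shares. Of 6 measured miR-33 targets, 5 passed, 2 above 0 and 3 below, with a median of -0.09. They included Abca1 at 9.75 and 9.50 and Irs2, an insulin receptor substrate, at 6.01 and 5.69.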

How the data were processed

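The authors deposited 1 log2 value per probe set and array, made with RMA in Affymetrix Expression Console 1.3.0 per the submitters' processing notes. RMA subtracts background, equalises the arrays and compresses differences of dim probe sets. Among the microRNA genes above the threshold, the differences of the dimmer 42 had a standard deviation of 0.40, against 0.29 for the brighter 42. The dimmer ones include those that passed through 1 array alone and so had to differ. The annotation build was not given in the sources used here. The table held 41345 probe sets, 23521 with 1 symbol, 1814 with several and 16010 with none. The threshold is the median of the higher array over 22180 named genes, rounded. Gene values are means over probe sets, the difference is KO minus WT, and 1.5-fold (0.58 on the log2 scale) is a size, not a test. The number of arrays limits the precision. Hosts and sequences came from RefSeq tables of GRCm38.p6, matched by gene ID for 483 microRNA genes; hosts contain the gene. Clusters are genes within 10 kb of the next. The genes and lists were chosen with earlier results of these data known. Named genes were those past 1.5-fold, in a list, among the 15 brightest, at the threshold or sharing a seed, with the biogenesis genes of largest difference; others in the text were chosen after their values were seen. Python 3.11.15, pandas 2.3.3 and statsmodels 0.14.6 were used, and counting and loess (span 0.4) were tested on simulated data. The simulated spread was made much smaller than that of the arrays, so this checked the code and not the error of the counts.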

Additional observations from a re-analysis of the deposited data

How the results depend on the processing

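The count of 11 microRNA genes higher in KO became 1 at 2-fold and 28 at the looser fold, 33 of 483 without the threshold, and 1 of 25 with a threshold at the 75th percentile. The count of 1 lower became 0, 7, 23 and 0 under the same settings. Among all named genes, 2.58% were higher and 2.6% lower without the threshold, and 0.325% and 1.1% with the stricter one. Chosen after seeing the data, restriction to genes above the threshold on both arrays gave 6 higher, and restriction to hairpins under 60% G and C gave 4 higher of 37. Shares of all named genes at 2-fold, at the looser fold and under these restrictions are not given here, so those counts have no background beside them. The median difference of 0.16 was 0.022 without the threshold and lay between 0.13 and 0.18 under all other settings tried. Subtracting the median, the loess fit and renewed quantile normalization left 10 or 11 higher and 1 lower. All probe sets or the brightest probe set of a gene could change neither count, because each of the genes has 1 probe set on the array. Leaving out Mir99ahg (-0.12), which lay under 1.5-fold, could not change them either. Of 185 recomputed differences of 37 named genes, none moved by more than the probe set standard deviation. The probe set settings could not move them, and subtracting the median moved all by the same small amount. Only the loess fit and renewed quantile normalization could have moved single genes differently. The biogenesis list had 1 gene higher at the looser fold against 0. Hosts on either strand left the count of same-sign pairs within 1.5 times. No paired analysis was possible because each genotype has 1 array.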
